A study of Mus musculus with 72 samples.

Results

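The livers of 6 male and 6 female C57BL/6J mice that ate ad libitum (AL) were compared for the expression of autosomal genes. They are 12 of the 72 livers of a study that crossed 2 sexes, 2 strains (C57BL/6J and DBA2/J) and 3 diets (AL, 20% or 40% caloric restriction, CR), with 6 mice in each of 12 groups. The diets began at 6 months of age and lasted 17 to 18 months. Per the labels, all mice were bred in house from purchased stock and ate the same chow. They were killed in the morning, over 3 days, at 23 to 24 months of age. No fast was set, but CR mice had not received their ration on that day. The male and female groups compared here differ by sex alone in their labels, and the strain entry of these samples reads C57BL/J. RNA of each liver was hybridised to an Illumina bead array, 1 array per mouse. Of 25697 probes, 9280 lay on autosomes and were detected (p-value of the signal against background below 0.01) on 6 or more of the 12 arrays. They represent 6973 genes. A level below is a background-corrected and quantile-normalized log2 intensity. A difference is the male mean minus the female mean on that scale with its standard error, and adjusted p-values come from limma with Benjamini-Hochberg adjustment over the 10127 probes tested.

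In the rodent liver, much of the sex difference in gene expression follows the pattern of growth hormone release. Males release the hormone in pulses and females almost continuously, under the influence of gonadal steroids, and hepatocytes read the pattern through the growth hormone receptor and the transcription factor STAT5b. The best known targets in mice are the major urinary proteins (MUPs), which are pheromone-binding lipocalins, and cytochrome P450 enzymes of steroid, fatty acid and drug metabolism. In mouse liver the repressor BCL6 acts mainly on female-biased genes and the repressor CUX2, itself female-biased, mainly on male-biased genes.

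The sex labels were checked first. Xist, the RNA that coats the inactive X chromosome, was detected on 0 of 6 male arrays and 6 of 6 female arrays. Eif2s3y, a Y-linked translation factor gene, was detected on 6 of 6 male arrays at 6.92 to 7.42 and on 0 of 6 female arrays. The other Y-linked probes were dim and less clear. Kdm5d was detected on 2 male and 0 female arrays. Uty was detected on 3 male and 3 female arrays, at 4.43 to 5.01 in males and 4.55 to 4.72 in females. Of 13 hepatocyte markers on the array 11 were tested, and these were detected on all 12 arrays. Those not tested were Alb, whose probe was detected on 0 male and 4 female arrays, and Tat, detected on no array. The female array CF-5-AL stood apart from the rest. It had the highest share of detected probes, 44.9% against 36.8% to 41.3% on the other arrays. Its median correlation with the other females was 0.912, whereas the other 11 arrays had 0.974 to 0.986 within their own group. On principal component 1 (36.7% of the variance) it lay at 66.6 and the other arrays between -14.1 and 7.95. Component 2 (26.4%) held the males at 14.1 to 23.1 and the females at -26.0 to -5.85. Results are therefore given with all 12 arrays and without CF-5-AL, which leaves 6 males and 5 females.

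With all 12 arrays, 548 of the 9280 autosomal probes (5.91%) passed an adjusted p of 0.05, 315 of them higher in males (3.39%) and 233 lower (2.51%). Differences of at least 2-fold among these numbered 64 higher and 40 lower. Male and female levels did not overlap for 379 probes (4.08%), of which 316 also passed. Without CF-5-AL 1189 probes (12.8%) passed, 584 higher (6.29%) and 605 lower (6.52%) in males, and 774 (8.34%) did not overlap. All 548 remained past the threshold with the same sign, and the 641 gained were 269 higher and 372 lower. Counted by gene, on the brightest probe of each, 440 of 6973 passed with all arrays (6.31%), 251 higher (3.6%) and 189 lower (2.71%). Without CF-5-AL 935 passed (13.4%), 459 higher (6.58%) and 476 lower (6.83%). The median difference over all genes was 0.00205 with all arrays and 0.00148 without CF-5-AL. In whole liver RNA, fewer cells of a type and less RNA per cell cannot be told apart.

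Promoters of 5 of the genes described below are shown because their letters include recognition sequences of factors of the growth hormone and steroid axes. They are RefSeq sequences (GRCm38.p6) from 250 bases before to 50 after the annotated start, 5′ to 3′ on the strand of the gene. Capitals mark TTCNNNGAA (the palindrome bound by STAT5), ATTGAT (the core of the site of the liver factor HNF6, ATCAAT when it lies on the other strand) and the palindromic steroid response element (the inverted repeat of the sites GNACA and TGTNC, with 3 free bases between them, bound by the glucocorticoid receptor), each searched on both strands. A1bg (chr15:60921221-60921520, minus strand) and Slc22a26 (chr19:7802618-7802917, minus strand) were lower in males. Gsta1 (chr9:78230419-78230718, plus strand) and Mup21 (chr4:62150792-62151091, minus strand) were higher in males. Mt1 (chr8:94178839-94179138, plus strand) was lower in males and holds the steroid receptor repeat.
A1bg: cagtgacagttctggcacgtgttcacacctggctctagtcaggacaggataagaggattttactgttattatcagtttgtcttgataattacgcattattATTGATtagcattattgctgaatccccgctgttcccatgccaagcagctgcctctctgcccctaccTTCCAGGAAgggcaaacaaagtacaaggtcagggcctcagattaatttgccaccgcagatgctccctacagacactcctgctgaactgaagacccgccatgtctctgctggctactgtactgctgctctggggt
Slc22a26: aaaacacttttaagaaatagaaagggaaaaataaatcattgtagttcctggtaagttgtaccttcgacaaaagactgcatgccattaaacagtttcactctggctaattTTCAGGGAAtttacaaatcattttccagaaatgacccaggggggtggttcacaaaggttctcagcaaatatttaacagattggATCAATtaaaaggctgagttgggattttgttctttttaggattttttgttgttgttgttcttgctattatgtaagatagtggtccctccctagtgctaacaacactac
Gsta1: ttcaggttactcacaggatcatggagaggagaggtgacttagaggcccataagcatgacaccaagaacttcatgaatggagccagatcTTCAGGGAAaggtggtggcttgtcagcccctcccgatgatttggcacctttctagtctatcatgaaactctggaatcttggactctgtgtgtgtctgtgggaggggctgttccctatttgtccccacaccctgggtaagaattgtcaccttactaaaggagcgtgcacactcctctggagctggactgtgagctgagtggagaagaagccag
Mup21: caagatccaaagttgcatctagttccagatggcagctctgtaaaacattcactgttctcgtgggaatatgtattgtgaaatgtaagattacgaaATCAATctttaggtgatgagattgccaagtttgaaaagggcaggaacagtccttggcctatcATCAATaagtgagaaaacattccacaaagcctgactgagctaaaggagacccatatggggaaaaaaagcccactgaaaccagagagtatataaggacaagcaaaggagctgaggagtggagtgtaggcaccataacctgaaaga
Mt1: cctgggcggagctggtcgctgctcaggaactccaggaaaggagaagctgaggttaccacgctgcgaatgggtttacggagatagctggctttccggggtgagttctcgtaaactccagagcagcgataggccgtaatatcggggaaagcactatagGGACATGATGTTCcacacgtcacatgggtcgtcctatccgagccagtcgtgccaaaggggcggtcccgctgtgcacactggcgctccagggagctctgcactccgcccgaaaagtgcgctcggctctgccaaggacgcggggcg
The STAT5 palindrome lies at -84 in A1bg, -141 in Slc22a26 and -162 in Gsta1, counted in bases from the start site. The HNF6 core lies at -150 in A1bg, -58 in Slc22a26, and -156 and -94 in Mup21. The repeat of Mt1 lies at -94. Of the 49 genes named by rule, 40 had a window of this kind. The palindrome occurred in 21 of 208 genes higher in males (10.1%) and 12 of 149 lower (8.05%), against 465 of 5711 tested genes (8.14%) and 8.3% of all 32851 windows. The HNF6 core occurred in 15 of the 208 (7.21%) and 14 of the 149 (9.4%), against 296 of the 5711 (5.18%) and 7.54% of all windows. The repeat occurred in 0 of the 208 and in 3 of the 149 (2.01%), which were Acnat2, Eml1 and Mt1, against 22 of the 5711 (0.385%) and 0.475% of all windows. A match describes the letters and is not evidence that a factor binds.

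Genes known as male-biased or female-biased in mouse liver were followed as a pair of lists, which were drawn up with earlier results of these arrays known. Of 34 male-biased genes on the array 25 were tested, and 16 of these were higher and 0 lower in males, with a median difference of 1.55. Of these 16, Cyp4a12a, Cyp4a12b and Susd4 were detected on no female array and so passed the detection filter through males alone, which left them little room not to differ. Of the 22 members detected in both sexes 13 were higher. Of 27 female-biased genes on the array 16 were tested, and 9 were lower and 0 higher in males, with a median of -1.90. Of these 16, 8 were detected on all 12 arrays. Of the 8, 3 were lower and 0 higher in males with all arrays, and 7 lower and 0 higher without CF-5-AL. These counts describe the members that passed the filter. Over all genes 3.6% were higher and 2.71% lower in males with all arrays, and 6.58% were higher and 6.83% lower without CF-5-AL. Without CF-5-AL the male-biased list had 17 higher and 1 lower, the cytokine receptor gene Lifr (-0.45 ± 0.12, adjusted p = 0.0285), and a median of 1.57. The female-biased list then had 15 lower and 0 higher, and a median of -2.29. Its remaining member, the fatty acid hydroxylase gene Cyp4a14, had 0.34 ± 0.62, adjusted p = 0.771. The detection filter left out 9 male-biased genes, of which 5 were detected on no array and 4 on male arrays alone. Among the 4 were the fatty acid elongase gene Elovl3, on 5 male arrays with a highest level of 7.32, and the steroid dehydrogenase gene Hsd3b5, on 4 male arrays with a highest level of 8.47. It also left out 11 female-biased genes, 7 of them detected on no array. Hao2, an oxidase of hydroxy fatty acids, was detected on 0 male and 5 female arrays, and Sult1e1, the estrogen sulfotransferase gene, on 0 male and 3 female arrays.

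**Figure D1:**
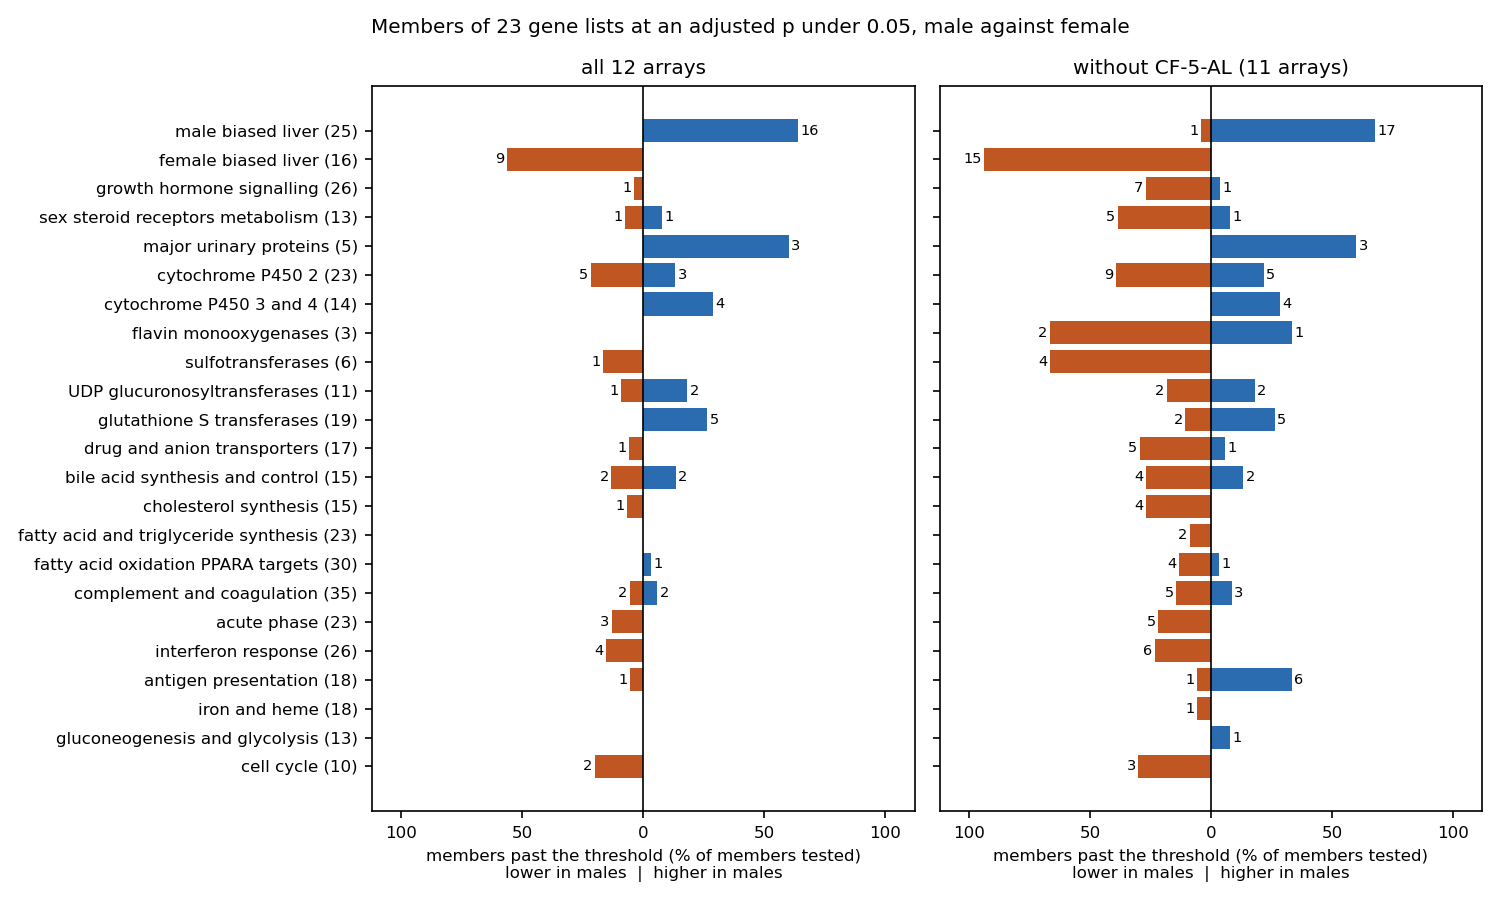
Share of the tested members of each gene list that passed an adjusted p of 0.05, in percent, with bars to the right for genes higher in males and to the left for genes lower in males. With all 12 arrays (left panel) 16 of 25 male-biased genes were higher and 9 of 16 female-biased genes lower, and without CF-5-AL (right panel) 17 were higher and 15 lower.

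Among the genes named, the 2 largest differences toward males were those of P450 genes. Cyp2d9, a testosterone hydroxylase of male mouse liver, had levels of 10.91 to 12.46 (median 11.60) in males and 4.60 to 6.16 (median 5.03) in females. The groups did not overlap, and the highest female was CF-5-AL. The probe was detected on 4 of 6 female arrays. Where a probe was detected on only some arrays of a group, as here, its fitted difference rests in part on levels near background. The Cyp2d9 mean was 11.67 ± 0.52 in males and 5.14 ± 0.57 in females (SD, n = 6 each), a fitted difference of 6.53 ± 0.28, adjusted p = 5.47e-09, and without CF-5-AL the difference was 6.73 ± 0.22, adjusted p = 2.21e-10. Cyp4a12a, a fatty acid hydroxylase known as male-specific in mice, had levels of 7.08 to 10.62 (median 9.28) in males and 4.23 to 4.38 (median 4.28) in females. Every male exceeded every female, and the probe was not well above background on any female array. The ratio is therefore at least 19.3-fold higher in males (adjusted p = 9.91e-05), with each female array set to the lowest level of any detected probe on it or to the probe's own level, whichever was higher. Its neighbour Cyp4a12b was likewise undetected in females and at least 3.81-fold higher in males (adjusted p = 5.7e-05), and the pair may cross-hybridise.

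Cyp2c55, a P450 of arachidonic acid metabolism, was detected on 6 male and 0 female arrays and was at least 1.95-fold higher in males (adjusted p = 0.00148). It passed the detection filter through males alone, which left it little room not to differ. Cyp3a11, the mouse counterpart of a major human drug-oxidising enzyme, was higher in males (0.87 ± 0.17, adjusted p = 0.00966), as were Cyp2j9 (0.63 ± 0.17, adjusted p = 0.046) and Cyp4f13 (0.49 ± 0.13, adjusted p = 0.0408). These were all the higher members of 2 lists. Of 23 Cyp2 genes 3 were higher and 5 lower in males (34.8%, against 6.31% over all genes). Of 14 Cyp3 and Cyp4 genes 4 were higher and 0 lower (28.6%). Without CF-5-AL 5 of the Cyp2 genes were higher and 9 lower (60.9%, against 13.4% over all genes). The Cyp3 and Cyp4 counts were again 4 and 0. Cyp2b10, the classical target of the xenobiotic receptor CAR, was among the lower genes with levels of 4.26 to 4.84 (median 4.52) in males and 4.27 to 8.10 (median 7.02) in females. CF-5-AL, at 4.27, lay among the males, and the other 5 females, at 6.21 or above, exceeded every male. The difference was -2.21 ± 0.49, adjusted p = 0.0204, and -2.71 ± 0.26, adjusted p = 2.09e-05 without CF-5-AL. Cyp2g1 (-1.35 ± 0.25, adjusted p = 0.00748), Cyp2c39 (-1.05 ± 0.22, adjusted p = 0.0146), Cyp2a5 (-1.66 ± 0.42, adjusted p = 0.0371) and Cyp2b13 (-1.91 ± 0.52, adjusted p = 0.0472) were also lower in males. Cyp2b10, Cyp2g1 and Cyp2c39 were detected on 1 of 6 male arrays each. Cyp2b9, female-biased in mice, had -1.90 ± 0.65, adjusted p = 0.109 with all arrays and was lower in males without CF-5-AL (-2.40 ± 0.51, adjusted p = 0.00848). Cyp2a and Cyp2b genes have near-identical copies, and their probes may take up signal from them.

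Of 21 listed MUP genes 5 were on the array, and 3 of these were higher in males (60.0%, against 6.31% over all genes). Mup21 had levels of 9.54 to 11.99 (median 11.32) in males and 5.96 to 7.48 (median 7.35) in females. The groups did not overlap, with CM-11-AL the lowest male and CF-5-AL the lowest female. The difference was 4.002 ± 0.39, adjusted p = 6.44e-05, and 3.77 ± 0.35, adjusted p = 1.3e-05 without CF-5-AL. Mup5 (2.81 ± 0.32, adjusted p = 0.000279) and Mup20, which encodes the male pheromone darcin (2.68 ± 0.37, adjusted p = 0.00136), did not overlap between the sexes either. A dimmer probe of Mup5, detected on 5 male and 3 female arrays, differed by 0.17 (adjusted p = 0.482). Mup2 was bright in both sexes, with levels of 13.45 to 13.97 (median 13.59) in males and 12.41 to 13.59 (median 13.38) in females. It had 0.52 ± 0.21, adjusted p = 0.16, and Mup6 had 0.36 ± 0.24, adjusted p = 0.419. MUP genes are nearly identical over long stretches, so that 1 probe may report several of them.

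Nat8, an acetyltransferase gene, was among the clearest differences outside the P450 and MUP families. Its levels were 7.96 to 8.97 (median 8.56) in males and 4.41 to 4.92 (median 4.62) in females, and the difference was 3.85 ± 0.16, adjusted p = 5.47e-09, with the probe detected on 3 of 6 female arrays. Olig1 (2.51 ± 0.29, adjusted p = 0.000274), known as a transcription factor of oligodendrocytes, and Fitm1 (1.999 ± 0.31, adjusted p = 0.0034), which promotes lipid droplet formation, were higher in males without overlap, and were detected on 4 and 3 of the 6 female arrays. Susd4, an inhibitor of complement, was detected on 6 male and 0 female arrays and was at least 2.36-fold higher in males (adjusted p = 0.0129).

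Among the female-biased list, A1bg had the largest difference and also showed the arrays that departed from their group. It encodes a secreted plasma protein of the immunoglobulin superfamily. On the male arrays CM-1-AL, CM-2-AL, CM-6-AL, CM-8-AL, CM-10-AL and CM-11-AL its levels were 4.33, 4.33, 4.26, 4.56, 4.72 and 7.85. On the female arrays CF-4-AL, CF-5-AL, CF-6-AL, CF-9-AL, CF-17-AL and CF-20-AL they were 12.37, 4.80, 13.05, 12.83, 12.38 and 13.17. CF-5-AL thus lay within the male range, and CM-11-AL lay far above the other males. The probe was detected on 6 of 6 female arrays but on 1 of 6 male arrays, CM-11-AL, so that the size of the difference rests on the background level of 5 males. The fitted difference was -6.42 ± 1.24, adjusted p = 0.00978, and without CF-5-AL it was -7.75 ± 0.52, adjusted p = 5.57e-07.

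Cyp17a1, which makes androgen precursors, had levels of 6.06 to 8.80 (median 8.21) in males and 10.05 to 11.85 (median 11.40) in females. The groups did not overlap, and CM-11-AL was here the male farthest from the females. The difference was -3.46 ± 0.44, adjusted p = 0.000648, and -3.71 ± 0.40, adjusted p = 5.21e-05 without CF-5-AL. Slc22a26, an organic anion transporter gene, had levels of 4.66 to 7.80 (median 5.50) in males and 7.58 to 8.71 (median 8.56) in females. CM-11-AL, at 7.80, lay above CF-5-AL, at 7.58, and the other males were at 5.82 or below. The difference was -2.68 ± 0.42, adjusted p = 0.00345, and -2.84 ± 0.41, adjusted p = 0.000656 without CF-5-AL. Cux2, the repressor named above, had levels of 4.16 to 5.19 (median 4.24) in males and 4.42 to 6.92 (median 6.50) in females. CF-5-AL, at 4.42, and CM-11-AL, at 5.19, were again the arrays nearest the other sex. The probe was detected on 1 of 6 male and 5 of 6 female arrays, and the size of the difference again rests on background in the males. The fitted difference was -1.84 ± 0.35, adjusted p = 0.00946, and -2.20 ± 0.17, adjusted p = 2.47e-06 without CF-5-AL.

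Dct, an enzyme known from melanin synthesis (-2.89 ± 0.46, adjusted p = 0.00376), Nt5e, the nucleotidase CD73 (-2.17 ± 0.27, adjusted p = 0.000589), and St3gal6, a sialyltransferase gene (-2.16 ± 0.17, adjusted p = 1.02e-05), were lower in males without overlap. For these 3 genes CF-5-AL was the lowest female. For Dct it was at 6.09, just above the highest male at 6.00, with the other females at 8.82 or above. Without CF-5-AL the difference was -3.40 ± 0.15, adjusted p = 2.89e-09 for Dct. It was -2.37 ± 0.21, adjusted p = 1.17e-05 for Nt5e and -2.33 ± 0.10, adjusted p = 2.89e-09 for St3gal6. Cyp7a1, the rate-limiting enzyme of bile acid synthesis, was lower in males as well (-1.97 ± 0.53, adjusted p = 0.046). Ccnd1, the cyclin D1 gene (-1.61 ± 0.19, adjusted p = 0.000338), the zinc finger gene Zfp292 (-1.30 ± 0.15, adjusted p = 0.000232), Rtn4, a membrane-shaping protein of the endoplasmic reticulum (-1.09 ± 0.15, adjusted p = 0.00128), and Fkbp5, a co-chaperone induced by glucocorticoids (-1.31 ± 0.20, adjusted p = 0.00313), also did not overlap. The further probes of Ccnd1, Zfp292, Rtn4 and Nt5e were lower in males too.

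**Figure D2:**
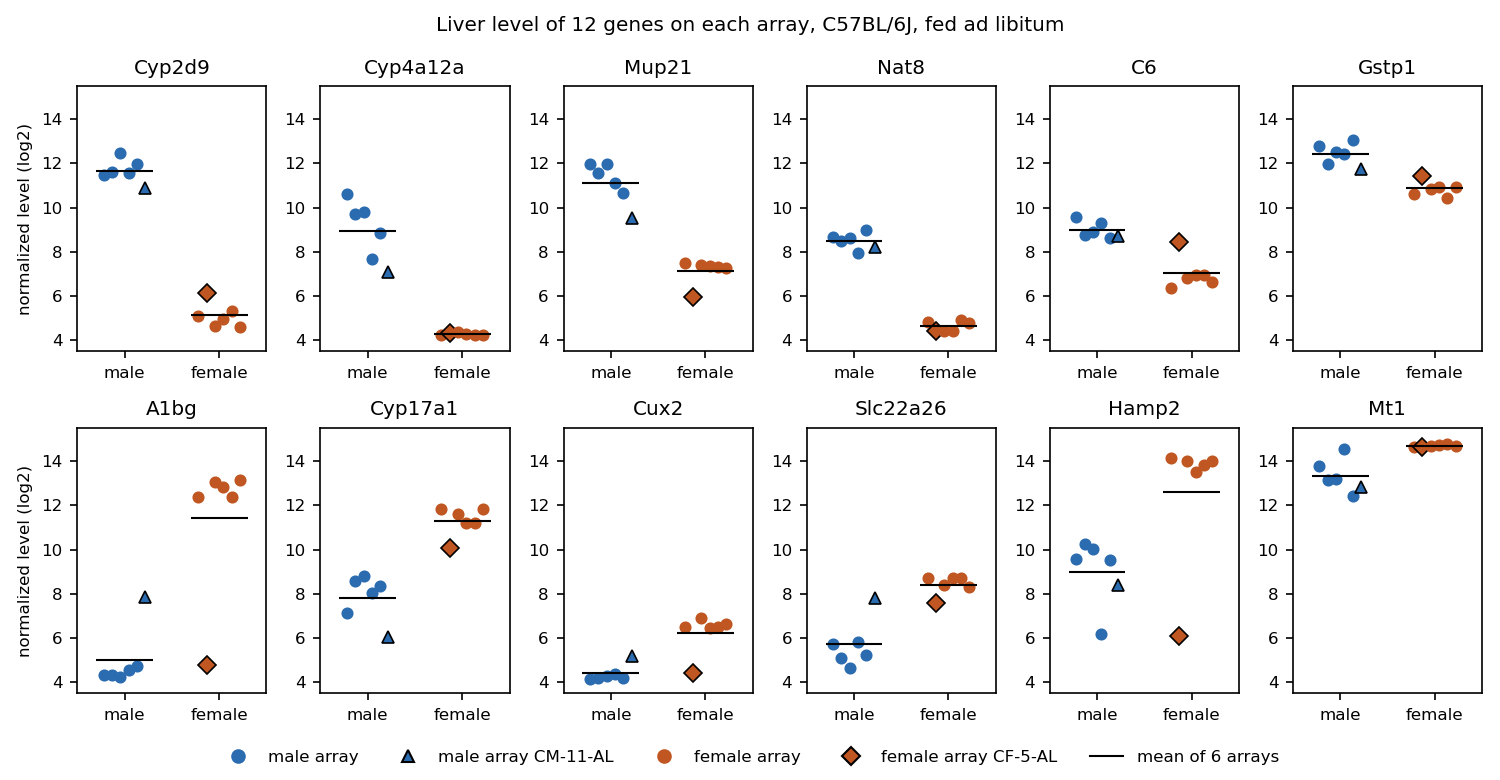
Normalized log2 level of 12 genes on each array, males at the left and females at the right of each panel, with a line at the mean of the 6 arrays. For A1bg, Cux2 and Slc22a26 the diamond (CF-5-AL) lies within the male range and the triangle (CM-11-AL) lies above the other males. For Hamp2 the diamond lies just below the male range.

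Several female-biased genes passed only without CF-5-AL and were singled out after their values were seen. Hamp2, a paralog of the iron hormone gene Hamp, had levels of 6.19 to 10.24 in males, 6.07 on CF-5-AL and 13.52 to 14.16 on the other 5 females. It had -3.60 ± 1.23, adjusted p = 0.109 with all arrays and was lower in males without CF-5-AL (-4.90 ± 0.55, adjusted p = 8.85e-05). Hamp had -0.88 ± 0.29, adjusted p = 0.0615 without that array. Of 18 iron and heme genes 0 were higher or lower with all arrays. Without CF-5-AL Hamp2 alone passed (5.56%, against 13.4% over all genes). The peroxisomal thioesterase genes Acot3 (-3.45 ± 0.44, adjusted p = 0.000223) and Acot4 (-1.37 ± 0.18, adjusted p = 0.000331) and the flavin monooxygenase genes Fmo1 (-0.84 ± 0.22, adjusted p = 0.0236) and Fmo4 (-0.79 ± 0.13, adjusted p = 0.00204) were lower in males in the same fit.

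The position of each array between the sexes was then read from both lists. The 16 female-biased genes averaged 6.30 to 7.73 on male arrays, 6.52 on CF-5-AL and 9.22 to 9.68 on the other 5 females. The 25 male-biased genes averaged 8.78 to 9.87 on male arrays, 7.54 on CF-5-AL and 7.61 to 7.84 on the other females. CF-5-AL was therefore at the low end of its group for both lists. It was the lowest female for 16 of 16 female-biased genes and within the male range for 11, against 1 to 4 for the other females. For the male-biased genes it was within the male range for 7 of 25, against 5 to 10 for the others. CM-11-AL was the highest male for the female-biased mean and the lowest for the male-biased mean. It was the male nearest the females for 10 of 16 female-biased and 15 of 25 male-biased genes.

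**Figure D3:**
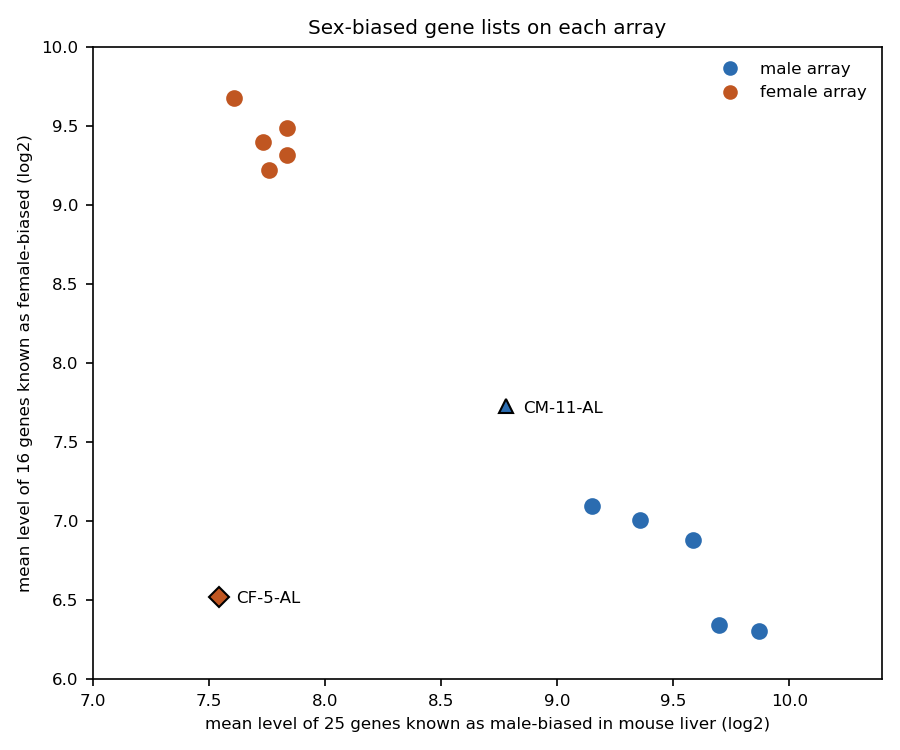
Mean normalized log2 level of the 25 male-biased genes (horizontal axis) against that of the 16 female-biased genes (vertical axis), 1 point per array. The males have 8.78 to 9.87 on the horizontal axis and 5 females have 9.22 to 9.68 on the vertical axis, with CM-11-AL at 8.78 and 7.73 and CF-5-AL at 7.54 and 6.52.

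Several marker lists of other cell types were higher on CF-5-AL than on the other arrays, and others were not. The 3 B and plasma cell markers tested of 10 on the array averaged 6.90 to 7.54 on male arrays, 10.98 on CF-5-AL and 6.96 to 7.31 on the other females. The 8 neutrophil markers tested of 15 averaged 6.32 to 7.97 on male arrays, 9.88 on CF-5-AL and 6.36 to 7.20 on the other females. The 3 T and NK cell markers tested of 14 averaged 5.17 to 5.61, 7.34 and 4.96 to 5.31 on the same arrays. Among members not tested, Cd4, Cd8a, Ms4a1 and Pax5 were detected on no array, while Cd3d and Fcrla reached 7.92 and 7.80 in females. The 3 exocrine pancreas markers tested averaged 5.73 on CF-5-AL and 5.72 to 6.31 on the other females. The 1 cholangiocyte gene tested had 4.79 and 4.75 to 5.26. Car3, the 1 adipocyte gene tested, had 6.74 and 11.19 to 11.49. Summed on the linear scale, the 11 hepatocyte markers came to 143059 to 154235 in males, 121825 on CF-5-AL and 151201 to 158597 on the other females. The part of these cells in the results that rest on CF-5-AL was not tested. Between the sexes, with all arrays, the autosomal members of the 11 cell type lists held 1 gene higher in males. It was Rbp4, 1 of 11 hepatocyte genes tested (0.72 ± 0.18, adjusted p = 0.037). That is 9.09% of the list, against 6.31% over all genes. Car2 of the erythroid list, with 3 autosomal genes tested, was the 1 lower gene (-0.63 ± 0.10, adjusted p = 0.00359), detected on 2 of 6 male arrays. No member of the other cell type lists passed. Without CF-5-AL both genes passed again. Asgr1 of the hepatocyte list was then lower (18.2% of that list in all, against 13.4% over all genes). Ccl5 of the T and NK cell list (33.3%) and Mmp9 of the neutrophil list (12.5%) were higher. The X-linked Alas2, also of the erythroid list, was higher in males (1.76, adjusted p = 0.00121).

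**Figure D4:**
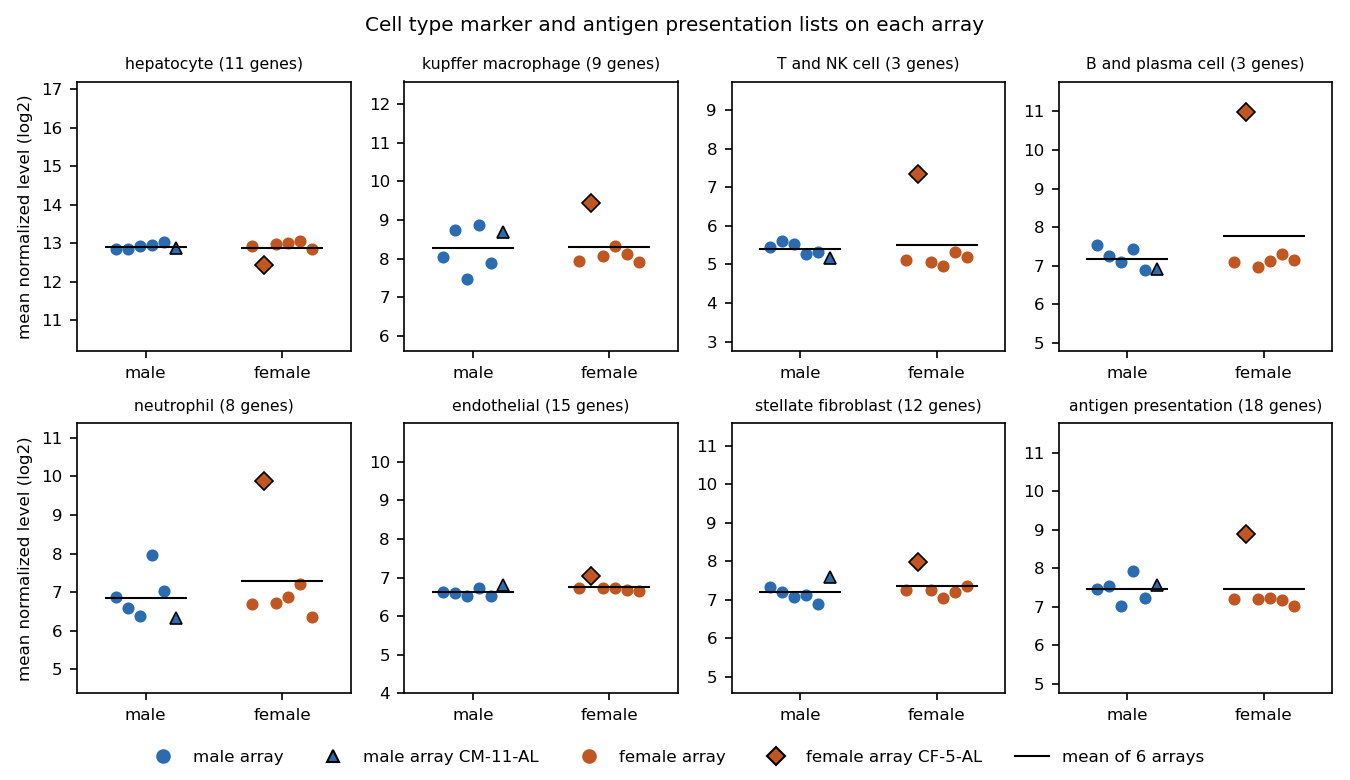
Mean normalized log2 level of 8 lists on each array, males at the left and females at the right, with a line at the mean of the 6 arrays, and the same height of log2 units in every panel. The diamond (CF-5-AL) lies above all other arrays for B and plasma cell markers (10.98) and neutrophil markers (9.88) and below them for hepatocyte markers (12.44).

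Of 26 growth hormone signalling genes tested, 0 were higher and 1, Cux2, was lower in males. That is 3.85% of the list, against 6.31% over all genes. Ghr, the receptor gene, had levels of 9.65 to 10.26 (median 10.01) in males and 8.97 to 10.98 (median 10.71) in females. CF-5-AL was the lowest array at 8.97, and the other 5 females, at 10.53 or above, exceeded every male. The difference was -0.47 ± 0.28, adjusted p = 0.353 with all arrays and -0.76 ± 0.12, adjusted p = 0.00168 without CF-5-AL. A dimmer probe of Ghr had -0.53 (adjusted p = 0.511) and, without CF-5-AL, -0.93 (adjusted p = 0.0347). Without CF-5-AL 7 genes were lower and 1 higher in males (30.8% of the list, against 13.4% over all genes). The lower ones included Igfals, which stabilises IGF-1 in plasma (-0.86 ± 0.15, adjusted p = 0.00324), Igfbp4 (-0.31 ± 0.09, adjusted p = 0.0382), and the liver transcription factor genes Foxa2 (-0.46 ± 0.09, adjusted p = 0.00631) and Foxa3 (-0.80 ± 0.20, adjusted p = 0.0187), and the higher one was the phosphatase gene Ptpn1 (0.67 ± 0.19, adjusted p = 0.0368). Igf1, the main hormonal product of the axis, had levels of 11.11 to 11.81 (median 11.39) in males and 10.83 to 11.46 (median 11.39) in females, and its difference was 0.16 ± 0.14, adjusted p = 0.536. Bcl6 had levels of 6.40 to 7.99 (median 7.22) in males and 6.99 to 8.07 (median 7.52) in females. Its difference was -0.37 ± 0.24, adjusted p = 0.392, and that of Stat5a was -0.45 ± 0.15, adjusted p = 0.11. Stat5b and Onecut1, the gene of HNF6, were detected on 0 of 12 arrays, and Trim24 and Prlr had no probe.

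Of 13 genes of sex steroid receptors and metabolism tested, 1 was higher and 1, Cyp17a1, lower in males (15.4%, against 6.31% over all genes). The higher gene was Cyp7b1, which hydroxylates oxysterols and androgen precursors, with levels of 9.0 to 10.57 (median 9.98) in males and 7.33 to 9.06 (median 8.50) in females. The ranges met at 9.0, the lowest male, and 9.06, the highest female. The difference was 1.60 ± 0.28, adjusted p = 0.00583. Esr1, the estrogen receptor gene, had -0.56 ± 0.20, adjusted p = 0.123 and was lower in males without CF-5-AL (-0.75 ± 0.13, adjusted p = 0.00204). Without that array Hsd17b7 (-0.54 ± 0.16, adjusted p = 0.0365), Hsd17b12 (-0.40 ± 0.10, adjusted p = 0.0239) and Hsd11b1, which activates glucocorticoids (-0.53 ± 0.15, adjusted p = 0.0358), were lower too. In that fit 46.2% of the list passed, against 13.4% over all genes.

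Among conjugating enzymes, of 19 glutathione S-transferase genes tested, 5 were higher and 0 lower in males (26.3%, against 6.31% over all genes). Gstp1 had levels of 11.76 to 13.04 (median 12.48) in males and 10.42 to 11.44 (median 10.89) in females, without overlap, and a difference of 1.55 ± 0.22, adjusted p = 0.00157. Gstp2 (1.62 ± 0.22, adjusted p = 0.00139), Gsta2 (1.89 ± 0.52, adjusted p = 0.0492) and Mgst1 (0.58 ± 0.15, adjusted p = 0.0379) were also higher. Gsta1 had levels of 5.88 to 9.92 (median 6.90) in males and 4.50 to 5.55 (median 4.87) in females. Its difference was 2.44 ± 0.59, adjusted p = 0.029, and the call was lost when any of 6 single arrays was left out. Without CF-5-AL 5 of the 19 were higher and 2 lower (36.8%, against 13.4% over all genes). The Gstp and the Gsta genes are close pairs that may cross-hybridise. Of 6 sulfotransferase list genes, 1 was lower in males (16.7%), the phenol sulfotransferase gene Sult1a1 (-0.79 ± 0.14, adjusted p = 0.00564). Without CF-5-AL 4 were lower (66.7%), including Sult1c2 (-1.25 ± 0.12, adjusted p = 2.09e-05) and Papss2, which makes the sulfate donor (-1.04 ± 0.15, adjusted p = 0.000664). Of 11 glucuronosyltransferase list genes 27.3% passed with all arrays and 36.4% without CF-5-AL. With all arrays Ugt2b1 (1.21 ± 0.28, adjusted p = 0.0245) and Ugt2b35 (0.73 ± 0.16, adjusted p = 0.0205) were higher and Ugt1a2 (-1.20 ± 0.33, adjusted p = 0.0491) lower in males. The call of Ugt2b1 was lost when any of 3 single arrays was left out. Of 17 drug and anion transporter genes, Slc22a26 alone passed with all arrays (5.88%, against 6.31% over all genes). Without CF-5-AL 5 were lower, Slc22a26, Slc22a23, Slc22a5, Slco1a4 and Slco2a1, and 1 was higher, Abcb4 (35.3% in all).

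Among lists of lipid and sugar metabolism, shares past the threshold were read against 6.31% over all genes with all arrays and 13.4% without CF-5-AL. Of 15 bile acid genes (26.7%) 2 were higher, Cyp7b1 and Nr1h4, the gene of the bile acid receptor FXR (0.54 ± 0.12, adjusted p = 0.0201), and 2 were lower, Cyp7a1 and Acnat2 (-0.93 ± 0.25, adjusted p = 0.046). Without CF-5-AL 2 were higher and 4 lower (40.0%), with the oxysterol hydroxylase gene Cyp39a1 and the FGF co-receptor gene Klb added. Of 30 fatty acid oxidation genes 1 was higher, the peroxisomal thiolase gene Acaa1a (0.59 ± 0.13, adjusted p = 0.0211), and 0 were lower (3.33%). Its call was lost without CM-6-AL or CF-6-AL. Without CF-5-AL Acaa1a was again higher, and 4 were lower (16.7% in all), Acadl, Acot3, Acot4 and Angptl4. Of 15 cholesterol synthesis genes 1 was lower, Msmo1 (-0.72 ± 0.19, adjusted p = 0.046), whose call was lost when any of 9 single arrays was left out (6.67%). Without CF-5-AL 4 were lower (26.7%), Msmo1, Hsd17b7, Lss and Tm7sf2. Of 23 fatty acid and triglyceride synthesis genes and 13 genes of gluconeogenesis and glycolysis, 0 passed with all arrays. Without CF-5-AL 2 of the first list, Acss2 and Fads1, were lower (8.7%), and 1 of the other (7.69%), the glucose-6-phosphatase gene G6pc, was higher (0.56 ± 0.15, adjusted p = 0.0262).

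Of 35 complement and coagulation genes 2 were higher and 2 lower in males (11.4%, against 6.31% over all genes). C6, a part of the membrane attack complex, had levels of 8.64 to 9.57 (median 8.84) in males and 6.36 to 8.47 (median 6.88) in females, and the highest female was CF-5-AL. The difference was 1.96 ± 0.30, adjusted p = 0.00255, and 2.24 ± 0.17, adjusted p = 2.33e-06 without CF-5-AL. C8b was higher as well (1.62 ± 0.26, adjusted p = 0.0038), while C8a had 1.32 ± 0.43, adjusted p = 0.0886 and was higher only without CF-5-AL (1.69 ± 0.29, adjusted p = 0.00259). Fga, a fibrinogen chain gene (-0.70 ± 0.14, adjusted p = 0.014), and Masp1, a protease of the lectin pathway (-0.64 ± 0.13, adjusted p = 0.0142), were the lower genes. Without CF-5-AL 3 of the list were higher and 5 lower (22.9%, against 13.4% over all genes). Of 23 acute phase genes 3 were lower and 0 higher in males. The metal-binding metallothioneins were among them, and Mt1 had levels of 12.43 to 14.55 (median 13.18) in males and 14.63 to 14.79 (median 14.68) in females. Its difference was -1.37 ± 0.27, adjusted p = 0.0114, and that of Mt2 was -2.08 ± 0.39, adjusted p = 0.00832. The pentraxin gene Crp had -0.52 ± 0.11, adjusted p = 0.018. Without CF-5-AL 5 were lower (21.7%), these 3 with Il6ra and Itih4.

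Of 26 interferon response genes 4 were lower and 0 higher in males (15.4%, against 6.31% over all genes). Gbp3, a GTPase of host defence, had levels of 5.57 to 6.84 (median 6.31) in males and 7.06 to 8.67 (median 7.49) in females, did not overlap, and had -1.39 ± 0.27, adjusted p = 0.00989. The highest female was CF-5-AL, and without it the difference was -1.17 ± 0.21, adjusted p = 0.00267. Irf9, Usp18 and Mx2 were the other lower genes. The difference was -0.41 ± 0.10, adjusted p = 0.0268 for Irf9, -0.83 ± 0.22, adjusted p = 0.0454 for Usp18, and -0.53 ± 0.14, adjusted p = 0.0437 for Mx2. The call of Irf9 was lost when any of 5 single arrays was left out, and a dimmer probe of it had -0.11 (adjusted p = 0.675). Without CF-5-AL 6 were lower, these 4 with Igtp and Stat2 (23.1%, against 13.4% over all genes). Of 18 antigen presentation genes 1 was lower (5.56%, against 6.31% over all genes). This was H2-T10 (-0.41 ± 0.11, adjusted p = 0.046), and its call was lost when any of 10 single arrays was left out. It was detected on 3 of 6 male arrays. Without CF-5-AL 6 of the 18, class I and class II genes, were higher and H2-T10 lower in males (38.9% in all). Over these 18 genes the mean level was 7.02 to 7.93 in males, 8.90 on CF-5-AL and 7.02 to 7.23 on the other females, and the part of immune cells in these results was not tested. Of 10 cell cycle genes 2 were lower in males (20.0%), Ccnd1 and the inhibitor gene Cdkn2c (-0.60 ± 0.13, adjusted p = 0.0201). Without CF-5-AL 3 were lower (30.0%), with Tk1 added.

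The same sex difference was set against that of C57BL/6J mice on 40% CR and that of DBA2/J mice on AL, with the difference between differences tested in a fit over all 72 arrays. Both tests use the 12 arrays described above. CR mice had not received their ration on the day of death, whereas AL mice ate until then. Against 40% CR, the sex difference changed for 277 of the 9280 probes (2.98%), and without CF-5-AL for 281 (3.03%). Of the 548 probes that differed by sex on AL, 113 were among them, and for 111 of these the sex difference was smaller in size at 40% CR, a direction that their selection on AL favours. The estimate at 40% CR had the opposite sign for 87 of the 113. Passing both tests, which share the AL arrays, favours an opposite sign too. In the male-biased list 4 of 25 changed, Cyp2d9, Mup21, C8b and Cyp4a12a, and in the female-biased list 5 of 16, A1bg, Cux2, Cyp2a5, Cyp7a1 and Fmo4. Without CF-5-AL these counts were 3 and 8.

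A1bg averaged 5.01 ± 1.40 in males and 11.43 ± 3.27 in females on AL and 4.60 ± 0.23 in males and 6.16 ± 0.96 in females on 40% CR, and its sex difference on AL minus that on 40% CR, the order used throughout, was -4.87 ± 0.93, adjusted p = 0.000876. Cux2 averaged 4.40 ± 0.39 in males and 6.24 ± 0.90 in females on AL and 6.04 ± 0.10 in males and 6.34 ± 0.33 in females on 40% CR. The larger movement was on the male side, and the change in the sex difference was -1.53 ± 0.43, adjusted p = 0.0357. Cyp2d9 averaged 11.67 ± 0.52 in males and 5.14 ± 0.57 in females on AL and 11.46 ± 0.79 in males and 8.49 ± 0.20 in females on 40% CR, a change of 3.56 ± 0.52, adjusted p = 1.12e-05, with the movement on the female side. Mup21 moved on the male side, with 11.13 ± 0.94 in males and 7.13 ± 0.58 in females on AL and 7.58 ± 1.25 in males and 6.98 ± 0.38 in females on 40% CR (3.40 ± 0.82, adjusted p = 0.0108). Cyp7a1 had 8.55 ± 0.92 in males and 10.52 ± 1.19 in females on AL and 10.24 ± 0.78 in males and 9.31 ± 0.67 in females on 40% CR (-2.90 ± 0.79, adjusted p = 0.0253), so that its mean difference had the opposite sign. For Cyp4a12a the change was 2.85 ± 0.86, adjusted p = 0.0489, and it missed the threshold without CF-5-AL (adjusted p = 0.0557).

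Against DBA2/J on AL the sex difference changed for 238 probes (2.56%), and without CF-5-AL for 291 (3.14%). Values in parentheses are the sex difference in C57BL/6J minus that in DBA2/J. Of the 548, 90 were among them, 84 with the smaller difference in DBA2/J and 65 with the opposite sign there. Their selection in C57BL/6J and by both tests favours both of these. In the male-biased list 6 of 25 changed, and 5 of these had the larger male excess in DBA2/J. Mup2, bright in both sexes of C57BL/6J, averaged 13.65 ± 0.18 in males and 13.13 ± 0.53 in females there and 12.07 ± 1.04 in males and 6.98 ± 2.17 in females in DBA2/J (-4.57 ± 1.04, adjusted p = 0.00605), and Mup6 followed it (-4.07 ± 0.94, adjusted p = 0.00654). Gstp2 averaged 6.81 ± 0.50 in males and 5.19 ± 0.36 in females in C57BL/6J and 11.00 ± 0.70 in males and 4.91 ± 0.32 in females in DBA2/J (-4.46 ± 0.45, adjusted p = 1.77e-10). Selenbp2 (-1.89 ± 0.34, adjusted p = 0.000372) and Cyp7b1 (-1.38 ± 0.40, adjusted p = 0.04) were the others. Cyp2d9 had the larger male excess in C57BL/6J (3.49 ± 0.52, adjusted p = 1.46e-05). With all arrays, A1bg was the only member of 16 in the female-biased list to change, with 4.45 ± 0.20 in males and 5.70 ± 1.40 in females in DBA2/J (-5.18 ± 0.93, adjusted p = 0.000372). Without CF-5-AL 7 male-biased genes changed, with C8b added (1.12, adjusted p = 0.0383), and 2 female-biased genes, with Hamp2 added (-4.21, adjusted p = 0.0142). Immune markers also varied within the DBA2/J groups, with neutrophil marker means of 6.47 to 9.69 in males and 7.80 to 9.85 in females, and their part in the strain results was not tested. Differences between the strains in the sequence under a probe were not tested either.

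**Figure D5:**
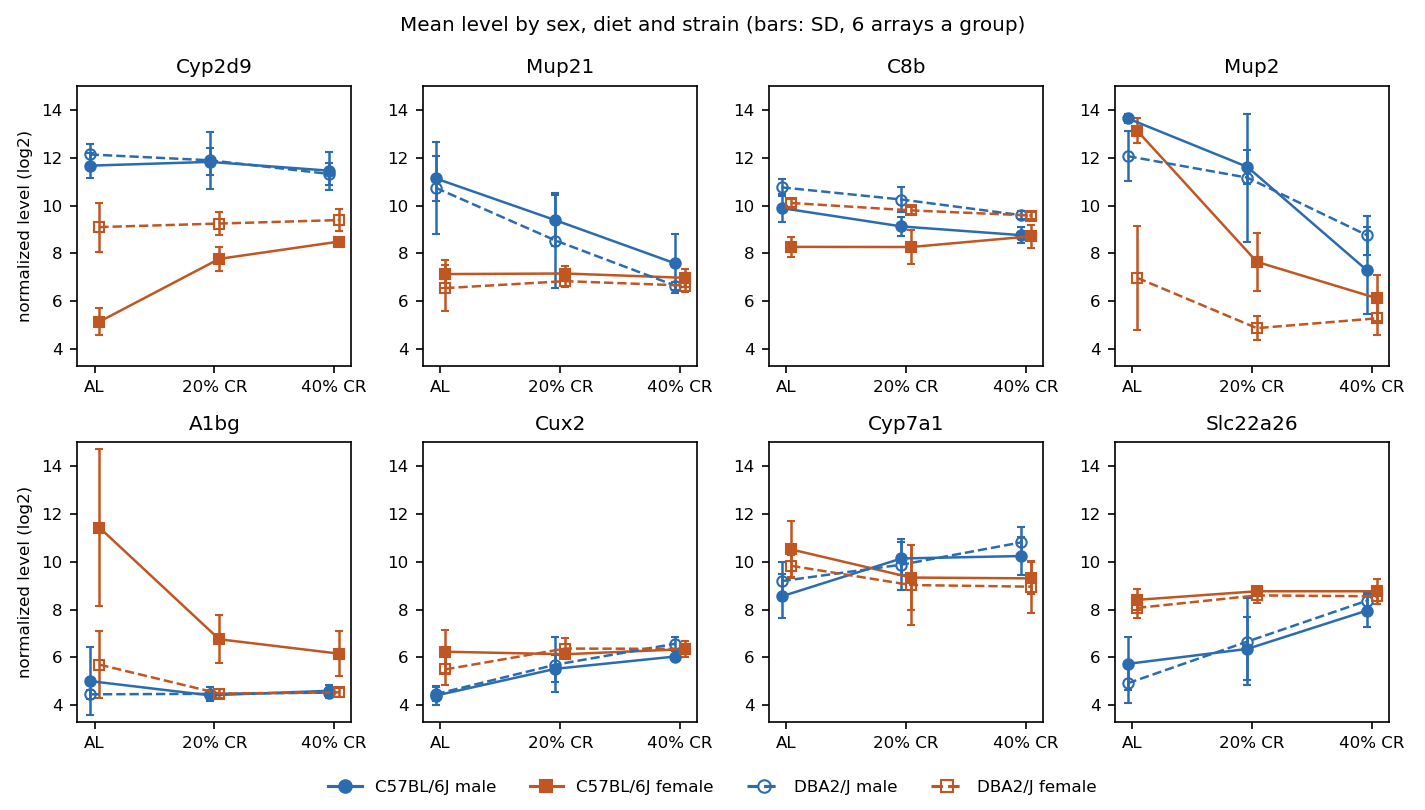
Mean normalized log2 level of 8 genes in males and females on AL, 20% CR and 40% CR, with SD over 6 arrays as bars, solid lines with filled points for C57BL/6J and dashed lines with open points for DBA2/J. On AL the sexes are far apart in C57BL/6J for A1bg (means 5.01 in males and 11.43 in females) and Cyp2d9 (11.67 in males and 5.14 in females), and on 40% CR they are nearer (4.60 and 6.16 for A1bg, 11.46 and 8.49 for Cyp2d9).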

How the data were processed

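Array intensities and detection p-values, deposited by the authors without normalization and made with GenomeStudio 2011.1 per the submitters' processing notes, were read for 72 arrays. The authors also deposited a score per probe, which equals the z-score of the log intensity on each array and served as an alternative. Intensities were background-corrected and quantile-normalized with neqc (limma 3.58.1, R 4.3.3, offset 16) over 72 arrays, and probes detected at a p-value below 0.01 on 6 or more of the 12 arrays were kept. The main test was lmFit and eBayes on the 12 arrays, male minus female, with Benjamini-Hochberg adjustment over 10127 probes at 0.05. Differences of sex differences were contrasts in a fit over 12 groups of 6. Of 25697 probes 23978 had 1 gene symbol from the platform annotation, 0 several and 1719 none, and 8 symbols were updated. Chromosomes come from RefSeq (GRCm38.p6), and the authors' build is not given in the sources used here. Promoters were searched with Python 3.11.15.

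The genes named are those past the threshold without overlap with the 10 largest changes each way, the 4 of lowest p from each of 5 lists on sex bias and its hormones, the 2 of lowest p past the threshold from each other pathway list, and 10 regulators, in all 49 genes. Genes outside this rule were named after their values were seen. The members and the lists were chosen with earlier results of these data known. Alternatives were other normalizations, the authors' z-scores, other filters, array weights, a shared spread and leaving out each array. The number of arrays limits the precision. The fit was tested on simulated data.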

Additional observations from a re-analysis of the deposited data

Results flagged for a closer look

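For 64 genes and marker lists in each sex, the gap between the outermost array and its nearest neighbour was compared with the range of the 6 arrays, and a ratio above Dixon's critical value for 6 arrays was taken as an outlier, which chance gives in about 1 of 20 groups. This held for 3 of 64 in males and 21 of 64 in females. The male cases were all CM-11-AL, with ratios of 0.871 for A1bg, 0.773 for Cux2 and 0.632 for Slc22a26. The female cases were all CF-5-AL. Among genes its ratios were 0.905 for A1bg, 0.869 for Mup21, 0.828 for St3gal6, 0.826 for Nt5e, 0.809 for Cux2, 0.793 for Dct, 0.776 for Ghr, 0.725 for C6, 0.703 for Foxa3, 0.662 for Esr1, 0.66 for Slc22a26 and 0.631 for Cyp17a1. Among lists they were 0.936 for the adipocyte list (1 gene tested), 0.914 for B and plasma cells, 0.891 for antigen presentation, 0.85 for T and NK cells, 0.799 for endothelial cells, 0.762 for neutrophils, 0.735 for Kupffer cells, 0.681 for hepatocytes and 0.66 for stellate cells.

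The sex difference on AL differed from that at 40% CR for 277 autosomal probes and from that of DBA2/J for 238. Among the genes named, the difference on AL minus that at 40% CR was 3.56 for Cyp2d9, 3.40 for Mup21, 2.85 for Cyp4a12a, 1.87 for Fitm1, 1.58 for C8b, 1.204 for Nat8, -1.202 for Rtn4, -1.53 for Cux2 and -4.87 for A1bg. Without CF-5-AL, Nat8 (adjusted p = 0.0612) and Cyp4a12a (adjusted p = 0.0557) missed the threshold of limma. The difference in C57BL/6J minus that in DBA2/J was 3.49 for Cyp2d9, 2.51 for Olig1, 2.20 for Nat8, 1.79 for Fitm1, 0.82 for Acaa1a and 0.65 for Nr1h4. It was -0.77 for Sult1a1, -1.38 for Cyp7b1, -2.28 for St3gal6, -4.46 for Gstp2, -4.57 for Mup2 and -5.18 for A1bg.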

How the results depend on the processing

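The count of 548 probes was 546 with quantile normalization alone, 519 with normalization of the 12 arrays alone, 401 without a detection filter and 389 with detection on all 12 arrays. It was 1169 with array weights (583 higher and 586 lower in males), which gave CF-5-AL a weight of 0.154, and 1076 with a spread shared over 72 arrays (632 higher, 444 lower). The authors' z-scores gave 394 (189 higher, 205 lower), and with the replicate number as a block 83 (52 higher, 31 lower). The correlations of same-numbered mice were -0.51 to 0.11. These few values show no pairing by number but cannot exclude one. Leaving out each array in turn gave 263 to 1189 probes, 162 to 584 higher, 96 to 605 lower and 81 to 143 at least 2-fold apart. The arrays that moved the total by over 1.5 times were CM-1-AL (336 without it), CM-6-AL (268), CM-10-AL (263), CF-6-AL (298), CF-17-AL (364), CF-20-AL (342) and CF-5-AL (1189). The 104 probes at least 2-fold apart were 61 with quantile normalization alone and 68 with detection on all arrays, and the z-scores define no fold. The diet count was 141 and the strain count 118 in fits of 4 groups only, 152 for strain with z-scores, and 281 and 291 without CF-5-AL. The cause of these shifts was not tested. Of 39 genes named and past the threshold, none changed direction in the settings run, and 34 to 39 passed when single arrays were left out, 37 with quantile normalization alone, 35 without a filter, 32 with z-scores and 27 with the block. Probes near background have little room to differ.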

Other observations

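Genes on the X chromosome were left out above. Of 255 X-linked probes tested, 11 were lower and 3 higher in males with all arrays, and 19 were lower and 8 higher without CF-5-AL. Of the autosomal probes 2.51% were lower and 3.39% higher with all arrays, and 6.52% lower and 6.29% higher without CF-5-AL. Besides Xist, the lower X-linked genes included Kdm6a (-0.91, adjusted p = 0.00203) and Eif2s3x (-0.84, adjusted p = 0.00564), which are known to escape X inactivation. Chic1, which lies close to Xist, was detected on 0 male and 6 female arrays and was at least 1.53-fold lower in males (adjusted p = 0.00616). It passed the detection filter through females alone, which left it little room not to differ. The higher ones were Alas2, the erythroid heme synthesis enzyme (1.76, adjusted p = 0.00121), Serpina7, the thyroxine-binding globulin gene (1.33, adjusted p = 0.0142), and Hprt (0.61, adjusted p = 0.046). These genes are examples picked with their values in view.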
